A study of Mus musculus with 2 samples.

Results

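The cation-chloride cotransporters are membrane proteins of the Slc12 gene family that carry chloride together with sodium or potassium. Their 8 genes described here are Slc12a1, Slc12a2, Slc12a3, Slc12a4, Slc12a5, Slc12a7, Slc12a8 and Slc12a9, taken by name from the 55413 genes of the GENCODE M21 annotation, of which 21938 are protein-coding. Chromatin accessibility was measured by DNase-seq, in which nuclei are cut with the nuclease DNase I and cuts gather in open DNA. The tissue was left cerebral cortex from 2 female mice, each 14 days old. They were first-generation hybrids of the strains C57BL/6J and CAST/EiJ (B6CASTF1/J), each gave 1 library, and the labels number these as biological replicates 1 and 2 under 1 donor record. Both libraries form a single group, with no second age, tissue or genotype, so no comparison between conditions and no p-value was possible.

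The authors deposited 90059 peaks for replicate 1 and 175597 for replicate 2, with a median peak signal of 0.678 and 0.463. The unit of the signal is not stated and read depth is unknown, so a value is compared between genes within a library. A peak is called a DNase I hypersensitive site (DHS) below, and a shared DHS is a region that holds a peak of each library, of which there were 78165. A promoter DHS is a peak that overlaps the 1 kb on either side of any annotated transcription start site (TSS) of a gene, and its signal is the highest of those peaks. Footprints are the short stretches inside open DNA where the authors found DNase I cuts depleted, 199455 in replicate 1 and 416840 in replicate 2. Replicate 2 thus has more calls of each kind, and a site found there alone is given as such. The tissue was not sorted, so open chromatin in few cells and weakly open chromatin in many cannot be told apart.

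Neuronal chloride decides what the transmitter GABA does. Slc12a2 encodes NKCC1, which brings sodium, potassium and chloride into the cell, and Slc12a5 encodes KCC2, which lets potassium and chloride out and is made almost only in neurons. In rodent cortex NKCC1 prevails in immature neurons, where GABA depolarises, and KCC2 increases over the early postnatal weeks as GABA becomes inhibitory, a change known as the GABA switch. The WNK kinases, acting through SPAK (Stk39) and OSR1 (Oxsr1), phosphorylate both carriers, which activates NKCC1 and restrains KCC2. Slc12a1 (NKCC2) and Slc12a3 (NCC) are the salt carriers of the kidney tubule, Slc12a4 (KCC1) and Slc12a7 (KCC4) are potassium-chloride carriers found in many tissues, and Slc12a8 and Slc12a9 are distant relatives.

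The 6 stretches below are printed because they are the highest distal DHS of a gene or lie at or near its start, and because the results below refer to them. They are read 5′ to 3′ from the mouse reference GRCm38.p6 (mm10), with capitals for bases that lay in footprints of both libraries. The Slc12a3 intron site is chr8:94343361-94343580 (plus strand). The Slc12a5 upstream site is chr2:164924541-164924760 and the Slc12a5 first-intron site is chr2:164961881-164962100 (both plus strand). The start of Slc12a7 is shown at chr13:73763436-73763696 and that of Slc12a8 at chr16:33516921-33517160 (both plus strand), and the start of Slc12a9 at chr5:137333598-137333720 (minus strand).
Slc12a3 intron site: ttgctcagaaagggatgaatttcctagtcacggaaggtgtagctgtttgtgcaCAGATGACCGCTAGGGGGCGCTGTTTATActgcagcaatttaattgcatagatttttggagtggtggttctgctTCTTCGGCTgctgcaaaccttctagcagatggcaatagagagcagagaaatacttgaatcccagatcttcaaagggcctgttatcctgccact
Slc12a5 upstream site: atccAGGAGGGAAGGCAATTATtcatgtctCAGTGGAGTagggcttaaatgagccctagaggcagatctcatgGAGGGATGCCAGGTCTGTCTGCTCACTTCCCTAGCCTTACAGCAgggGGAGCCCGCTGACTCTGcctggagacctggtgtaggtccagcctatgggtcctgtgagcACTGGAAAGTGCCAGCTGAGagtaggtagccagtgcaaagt
Slc12a5 first-intron site: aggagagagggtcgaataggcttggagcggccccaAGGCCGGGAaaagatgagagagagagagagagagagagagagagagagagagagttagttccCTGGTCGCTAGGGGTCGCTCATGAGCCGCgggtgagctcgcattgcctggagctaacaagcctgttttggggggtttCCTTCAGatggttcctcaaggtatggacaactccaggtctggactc
Slc12a7 start: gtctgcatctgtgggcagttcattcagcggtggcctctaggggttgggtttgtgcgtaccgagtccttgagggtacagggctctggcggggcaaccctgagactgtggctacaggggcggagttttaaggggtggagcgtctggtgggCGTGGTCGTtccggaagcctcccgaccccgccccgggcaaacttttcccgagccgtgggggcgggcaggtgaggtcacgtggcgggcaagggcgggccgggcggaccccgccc
Slc12a8 start: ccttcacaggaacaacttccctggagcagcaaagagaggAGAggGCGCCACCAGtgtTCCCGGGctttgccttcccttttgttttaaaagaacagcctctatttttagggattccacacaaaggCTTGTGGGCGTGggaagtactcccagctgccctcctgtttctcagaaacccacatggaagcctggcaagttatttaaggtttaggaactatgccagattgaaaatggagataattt
Slc12a9 start: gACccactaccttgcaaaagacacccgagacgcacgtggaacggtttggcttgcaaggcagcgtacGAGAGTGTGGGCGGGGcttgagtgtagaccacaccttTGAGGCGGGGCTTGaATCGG
The footprinted letters covered 108 of the 220 bases of the Slc12a5 upstream site, 45 of 220 in its first-intron site and 38 of 220 in the Slc12a3 intron site. At the starts they covered 37 of 123 bases in Slc12a9, 32 of 240 in Slc12a8 and 9 of 261 in Slc12a7.

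Of the 8 cotransporter genes, 5 had a promoter DHS in both libraries, a state found in 62.7% of protein-coding genes, and they were Slc12a2, Slc12a5, Slc12a7, Slc12a8 and Slc12a9. Slc12a4 had one in replicate 1 and none in replicate 2, which 0.916% of protein-coding genes showed. Slc12a1 and Slc12a3, the kidney carriers, had none in either library, as did 31.3% of protein-coding genes. The same 5 genes carried at least 1 promoter footprint in both libraries, against a background of 60.8%. With so few genes these shares lie near the background, and they are read as a description of each gene rather than of the family. With 0 for a gene without a peak, the median of the mean promoter signal was 0.977 over the 8 genes and 1.02 over all protein-coding genes. The cotransporter genes had a median of 6 start sites, against 3 for protein-coding genes, and more start sites give more sequence in which to find a peak.

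**Figure D1:**
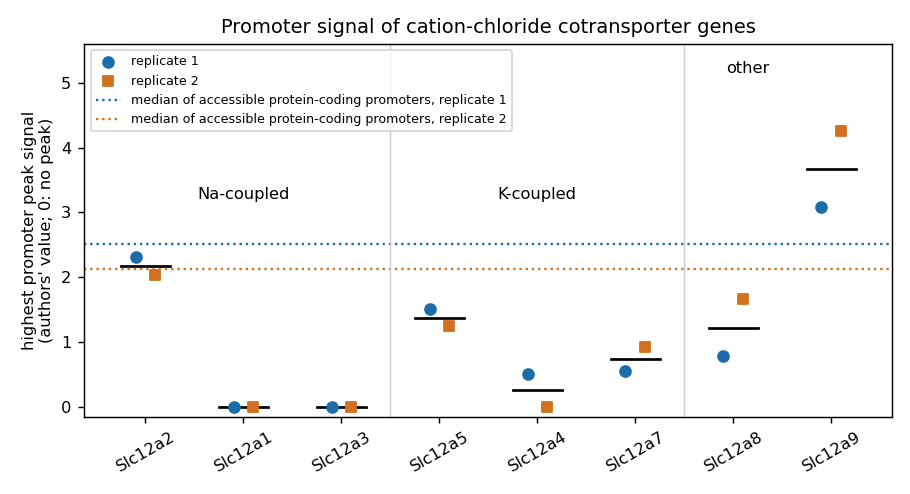
Promoter DHS signal (vertical axis, the authors' value, 0 where no peak was called) of the 8 cotransporter genes, with 1 point per library, a bar for their mean and dotted lines for the median of accessible protein-coding promoters in each library. Slc12a9 reached 3.08 and 4.26, Slc12a2 reached 2.32 and 2.04 and Slc12a5 reached 1.51 and 1.24, while Slc12a1 and Slc12a3 stood at 0.

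The genes with a promoter DHS in both libraries had the same order of signal in each library, except for Slc12a5 and Slc12a8. Slc12a9 averaged 3.67 ± 0.833, Slc12a2 2.18 ± 0.201, Slc12a5 1.38 ± 0.188, Slc12a8 1.22 ± 0.616 and Slc12a7 0.732 ± 0.261 (signal, mean ± SD, n = 2 libraries each). The 2 values of Slc12a9 lay above both of Slc12a2, and those of Slc12a2 lay above both of Slc12a5. Slc12a8 read 0.786 in replicate 1, below Slc12a5, and 1.66 in replicate 2, above Slc12a5. Slc12a7 was the lowest in each library, with 0.547 in replicate 1 and 0.916 in replicate 2. Among the promoters of protein-coding genes open in both libraries, whose median signal was 2.52 in replicate 1 and 2.13 in replicate 2, Slc12a2 stood at percentiles 46.4 and 48.0. Slc12a5 stood lower, at percentiles 30.3 and 28.6.

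Slc12a2, the chloride loader, lies at chr18:57878678-57946821 on the plus strand, and its main start was surrounded by peaks. Its coding transcript starts at base 57878678, where 4 shared DHSs followed each other inside 1 kb on either side. The strongest, chr18:57877961-57878300, had its midpoint 547 bp upstream and read 2.32 in replicate 1 and 2.04 in replicate 2. The DHS over the start itself, chr18:57878401-57878780, read 0.794 and 0.592. Both remaining sites lay downstream, at chr18:57879181-57879500 with 0.470 and 0.319 and at chr18:57879501-57879840 with 0.655 and 0.597. In each library the upstream site thus had the highest signal of the 4. The authors' segments of significant cleavage (q-value at most 0.05) covered 90.9% of this 2001 bp window in replicate 1 and 88.2% in replicate 2, with a lowest q of 8.52e-31 and 3.14e-65. Peaks covered less of it, 1078 bp in replicate 1 and 1034 bp in replicate 2. The window was 77.3% G and C, and its CpG dinucleotides stood at 1.05 times the number expected from its base composition, against a median of 0.552 over protein-coding starts. A second annotated start of Slc12a2, of a non-coding transcript at base 57927205, had no peak in either library.

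Slc12a5, the neuronal chloride extruder, lies at chr2:164960802-164999731 on the plus strand and has separate starts for its known isoforms, a 5′ one and an inner one. The 5′ start, with 4 transcripts beginning between bases 164960802 and 164960846, had no peak in replicate 1 and a low one of 0.617 in replicate 2, centred 902 bp downstream. Just beyond the 1 kb limit, the first-intron site printed above was open in both libraries, at 1.60 in replicate 1 and 1.29 in replicate 2, centred 1145 bp from the nearest TSS. The inner start, with 4 transcripts beginning between bases 164967983 and 164968281, carried the promoter signal of the gene. Its DHS chr2:164968101-164968380 read 1.51 in replicate 1 and 1.24 in replicate 2, and a second DHS, chr2:164968585-164968840, read 0.855 and 0.652. The segments of significant cleavage covered 24.3% of this window in replicate 1 and 25.4% in replicate 2, with a lowest q of 2.98e-08 and 4.84e-07. CpG dinucleotides stood at 0.593 times the expected number at the 5′ start and 0.673 times at the inner one. A further start at base 164996591, of a transcript with a retained intron, had 4 peaks of up to 0.622 in replicate 2 and none in replicate 1. Open chromatin at the start of Slc12a5 was thus measured mostly at the inner start and inside the first intron.

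**Figure D2:**
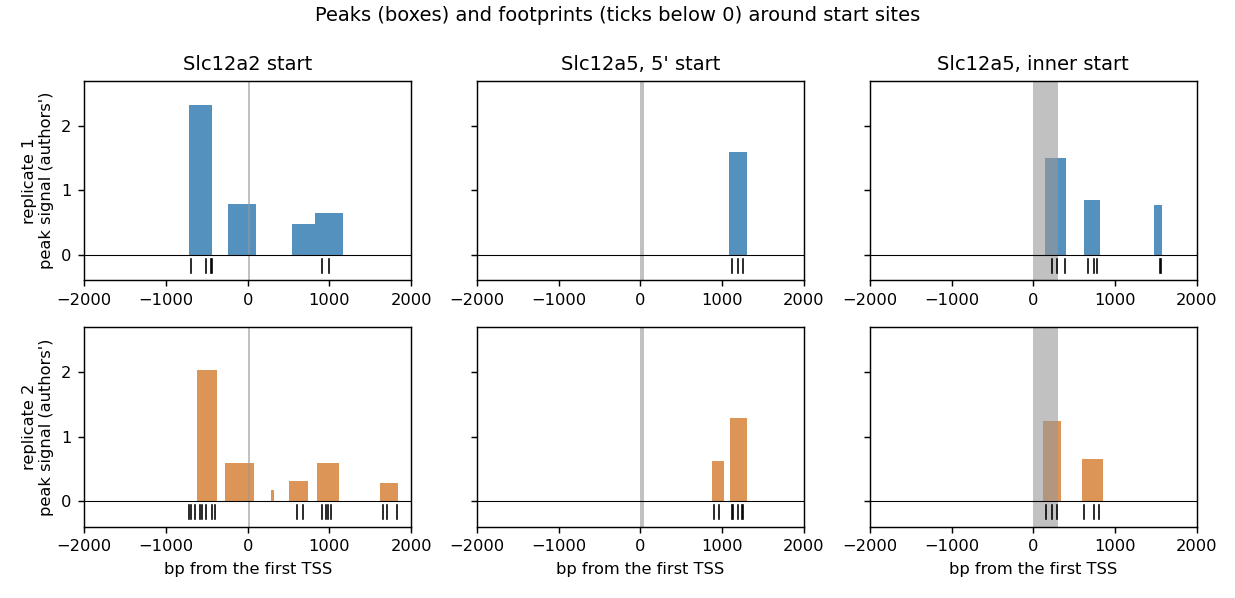
Peaks and footprints of each library around the main start of Slc12a2 and the 5′ and inner starts of Slc12a5 (horizontal axis, bp from the first TSS, vertical axis, peak signal). Boxes are peaks, ticks below 0 are footprints and grey bands span the TSSs of a start. The 4 peaks of both libraries surround the Slc12a2 start, none of both lies within 1 kb of the 5′ start of Slc12a5, and 2 lie at its inner start.

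By the highest peak in the promoter windows, the direct comparison of the pair gave Slc12a2 the higher signal in both libraries. In replicate 1 Slc12a2 read 2.32 and Slc12a5 1.51, a ratio of 1.54, and in replicate 2 Slc12a2 read 2.04 and Slc12a5 1.24, a ratio of 1.64. The log2 ratio of Slc12a2 over Slc12a5 was 0.66 ± 0.06 (mean ± SD, n = 2), and its values in the libraries, 0.62 and 0.71, lay close together. The order depended on the peak taken. That of Slc12a2 was centred 577 bp upstream of its start in replicate 1 and 497 bp upstream in replicate 2. That of Slc12a5 overlapped its inner start. The peak over the Slc12a2 start read 0.794 and 0.592, below the 1.51 and 1.24 of Slc12a5. Peaks took up 1078 and 1034 bp of the Slc12a2 promoter windows in replicates 1 and 2, against 457 and 1449 bp of those of Slc12a5. Slc12a5 has 10 start sites and Slc12a2 has 2, so the windows searched came to 8.35 kb for Slc12a5 and 4.00 kb for Slc12a2.

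Footprints gave another picture of the same starts. The Slc12a2 main start had 6 footprints in replicate 1 and 13 in replicate 2, of which 5 and 10 lay inside peaks, or 4.64 and 9.67 per kb of peak. The inner start of Slc12a5 had 6 in each library, all inside peaks, or 13.1 and 12.6 per kb of peak. Per length of all peaks at these starts, both values of Slc12a5 were above both of Slc12a2. The peak over the Slc12a2 start overlapped no footprint in either library. The strongest peak of Slc12a2 overlapped 4 footprints in 280 bp in replicate 1 and 5 in 240 bp in replicate 2. That of the inner Slc12a5 start overlapped 3 in 260 bp and 3 in 220 bp. The order of the genes thus depended on which peaks were counted. Over all promoter windows Slc12a2 had 6 and 13 footprints and Slc12a5 had 6 and 17, a mean difference of -2 ± 2.83 (Slc12a2 minus Slc12a5, SD, n = 2), which is smaller than the spread between libraries. The sign of this difference depended on which starts were counted: with the most 5′ start of each gene alone it was 8.5, and with the starts of protein-coding transcripts alone it was 2.5.

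In the gene body and around it, Slc12a5 had more open sites than Slc12a2. Slc12a2 had 3 shared DHSs in its 68.1 kb body and Slc12a5 had 8 in 38.9 kb, or 0.440 against 2.05 per 10 kb, a DHS being placed by its midpoint. Leaving out sites within 1 kb of any TSS, the values were 0.147 per 10 kb for Slc12a2 and 1.54 for Slc12a5, and in the stricter of the authors' peak lists, starts included, they were 0.293 and 0.771. Per library, Slc12a2 held 4 body peaks in replicate 1 and 8 in replicate 2, and Slc12a5 held 9 and 20. Distal DHSs, which are shared sites that lie no nearer than 1 kb to a TSS and at most 50 kb from a start of the gene, numbered 3 for Slc12a2 and 11 for Slc12a5. That came to 2.02 per 100 kb for Slc12a2 and 8.10 per 100 kb for Slc12a5. In the stricter peak list the distal counts were 2 for Slc12a2 and 4 for Slc12a5, and in replicate 2 alone they were 8 and 22. With starts of protein-coding transcripts alone, a choice added after seeing the data, they were 1 and 10. The direction was the same in each.

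The distal sites of Slc12a2 lay in its intron at chr18:57920441-57920680, with 0.316 in replicate 1 and 0.284 in replicate 2, and downstream of the gene. The downstream pair read 1.71 and 1.11 at chr18:57965581-57965740 and 1.90 and 1.20 at chr18:57976761-57976920. These sites lay 87.0 and 98.2 kb from the main start. They were counted only through the non-coding start of Slc12a2, which had no peak. Of the 11 distal sites of Slc12a5, 6 were in its own body, 4 in intergenic DNA and 1 in another gene. All of those outside its body lay nearer to a TSS of Zfp335os, Mmp9 or Ncoa5. Promoters of other genes held 6 shared DHSs within reach of Slc12a5 and 0 within reach of Slc12a2. Which gene a distal site acts on was not tested. The strongest, the upstream site printed above, lay 36.2 kb before the 5′ start and read 3.60 in replicate 1 and 3.42 in replicate 2, more than the promoter DHS of Slc12a5. Inside the gene, a pair at chr2:164964317-164964548 and chr2:164964601-164964840 lay between the 5′ and inner starts, with 0.963 and 0.637 at the first site and 1.13 and 1.72 at the second. Another pair stood near the 3′ end, at chr2:164994781-164995060 with 0.879 and 1.12 and at chr2:164995141-164995460 with 1.00 and 1.33.

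**Figure D3:**
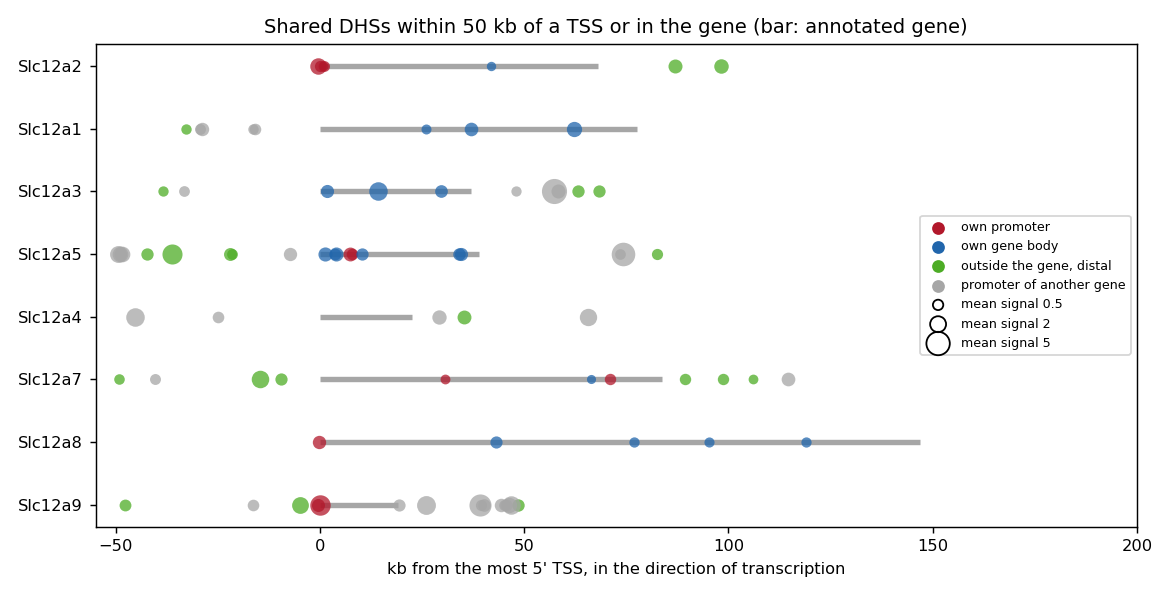
Shared DHSs along the surroundings of each cotransporter gene (horizontal axis, distance from the most 5′ start in kb, 1 row per gene, bar for the annotated gene), with point size for the mean signal of the libraries and colour for the kind of site. Slc12a5 has 8 shared DHSs in its body and Slc12a2 has 3, and the highest distal site of Slc12a5 averages 3.51.

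The kidney carriers had no peak at their starts but had shared DHSs inside the genes. Slc12a1 (chr2:125152505-125230002, plus strand) had no peak within 1 kb of any of its 3 start sites, and no cleavage segment was listed there. Its body held 3 shared DHSs, of which chr2:125214661-125214880 read 2.34 in replicate 1 and 1.23 in replicate 2, inside the overlapping gene Gm14002. A second, chr2:125189321-125189520, read 1.60 and 0.996. Slc12a3 (chr8:94329201-94366214, plus strand) likewise had no peak at any of its 7 start sites, and only 16 bp of significant cleavage in replicate 1, with a q of 0.0421. Its intron site printed above had the second highest mean signal of the distal sites of the 8 genes, with 3.03 in replicate 1 and 2.78 in replicate 2. The 2 other shared sites in the body of Slc12a3 read 1.12 and 1.21 at chr8:94330781-94331000 and 0.932 and 1.16 at chr8:94358681-94358900. The low CpG content at the main starts, 0.262 times the expected number in Slc12a1 and 0.316 in Slc12a3, set them apart from the 1.05 of Slc12a2. None of the 4 kidney tubule markers Umod, Aqp2, Slc34a1 and Kcnj1 had a promoter DHS in either library.

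The other potassium-chloride carriers had weak starts. Slc12a4 (chr8:105943590-105966097, minus strand) had 2 peaks at its main start in replicate 1, the higher at 0.509, and none in replicate 2. Neither was in the stricter list, although CpG dinucleotides there stood at 0.801 times the expected number. Its single distal DHS, chr8:105930741-105930940, lay in an exon of Pskh1 and read 1.62 and 1.13. Slc12a7 (chr13:73733094-73816754, plus strand) was open at its main start, shown above, with 0.501 in replicate 1 and 0.274 in replicate 2. Its higher promoter value came from an internal non-coding start at base 73804609, where the DHS chr13:73803861-73804140 read 0.547 and 0.916. Slc12a7 had 7 distal DHSs, the highest at chr13:73718381-73718580 with 3.18 and 1.90. Among the potassium-chloride carriers, Slc12a5 had the highest promoter signal in both libraries.

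Slc12a8 (chr16:33517328-33664135, plus strand) had its promoter DHS centred 287 bp upstream of its most 5′ start, and the low CpG content there was 0.362 times the expected number. Its 4 distal DHSs all lay in its own introns, the highest at chr16:33560361-33560600 with 0.994 and 0.836. Slc12a9 (chr5:137314558-137333597, minus strand) had the highest promoter signal of the 8 genes in both libraries, from a DHS over its start at chr5:137333521-137333720. A second promoter DHS, chr5:137333901-137334160, read 1.13 in replicate 1 and 1.14 in replicate 2. Apart from the DHS over its start, whose midpoint lies 24 bp outside the gene, Slc12a9 had no shared DHS in its 19.0 kb body, but it lies in a dense neighbourhood, with 11 promoter DHSs of other genes and 3 distal DHSs within 50 kb.

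At least 1 distal DHS was found for 8 of the 8 genes, against 81.2% of protein-coding genes. The median number was 3.5 for the cotransporter genes and 3 for protein-coding genes. Counts ran from 1 at Slc12a4 to 11 at Slc12a5, with 7 at Slc12a7, 6 at Slc12a3, 4 at Slc12a8 and 3 at each of Slc12a1, Slc12a2 and Slc12a9.

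Short consensus words were searched on both strands over the full width of 50 shared DHSs, namely the promoter sites of the cotransporter genes and the sites outside promoters in or within 50 kb of them. The word for CTCF, a factor that binds at insulators and loop anchors, matched in 5 of the 50 sites, each time in the central 200 bp, and all 5 matches lay inside a footprint in replicate 2 and 4 did so in replicate 1. In the central 200 bp it was thus held by 10% of these sites and by 6.99% of all shared DHSs. Protein-coding promoters were searched in a longer window at the most 5′ start, and 0.556% of them held it. With 5 sites the share lies near the background. The 4 matches inside footprints of both libraries are printed with their surroundings from mm10, since they carry this result, with the matched word in capitals. The strand is minus for Slc12a5 and plus for the others.
Slc12a3 CTCF match chr8:94330885-94330924: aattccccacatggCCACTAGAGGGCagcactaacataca
Slc12a5 CTCF match chr2:164918523-164918562: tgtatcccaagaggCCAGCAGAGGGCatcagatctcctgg
Slc12a7 CTCF match chr13:73723506-73723545: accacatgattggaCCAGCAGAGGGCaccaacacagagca
Slc12a7 CTCF match chr13:73831707-73831746: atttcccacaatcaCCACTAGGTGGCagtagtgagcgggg
The Slc12a5 match lay in a distal site 42.3 kb upstream of the gene, and those of Slc12a7 lay on either side of it. The fifth match was in an exon of Herpud1, a distal site of Slc12a3.

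Words of other factors were mostly not inside footprints. The word GCGNGGGCG of the EGR factors, of which Egr4 is a known activator of Slc12a5 in neurons, matched once in the DHS at the inner start of Slc12a5, outside footprints, and once in a distal site of that gene, inside a footprint of replicate 2. Both matches lay outside the central 200 bp, where 2.55% of all shared DHSs held the word. In their longer window, 6.89% of promoters held it. CACGTG, the E-box of the USF factors, matched 6 times and never in a footprint. Centrally, 5 of the 50 sites (10%) held it, against 5.61% of shared DHSs, and 7.75% of promoters held it in their longer window. Over the full width, the 3 matches of GGGGCGGGG (SP/KLF) and the 6 of TGANTCA (AP-1) were likewise never wholly inside a footprint. Of these 9, 3 partly overlapped a footprint of replicate 2. In the central 200 bp GGGGCGGGG was held by 4% of the 50 sites and 4.4% of shared DHSs, and TGANTCA by 8% and 8.43%. Variants of GGGGCGGGG were not searched. The Slc12a9 start printed above holds TGGGCGGGG and GAGGCGGGG in footprints of both libraries, and each differs from that word in a single letter. No match of TGACGTCA (CRE) or of the NRF1 word was found over the full width of these sites. Of all shared DHSs, 1.01% and 2.13% held them in the central 200 bp. The RE1 word, bound by the repressor REST that is known to silence Slc12a5 outside neurons, matched in none of the 50 sites. In the central 200 bp, 0.0819% of shared DHSs held it. It was also searched over each whole gene and 50 kb on either side. There it matched at chr2:164979939-164979954 in the Slc12a5 body and at chr5:137298398-137298413 outside Slc12a9. Neither match lay in a peak or footprint of either library. These words are not all a factor can bind.

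Most genes of the wider chloride-related list, which holds regulators and partners of the cotransporters and other transporters and channels, had open promoters. Of 25 such genes, 22 had a promoter DHS in both libraries and 2 had none in either, against 62.7% and 31.3% of protein-coding genes. The median of their mean promoter signal was 1.73, against 1.02 for all protein-coding genes. Their start sites ran from 1 in Egr4 to 24 in Wnk1, against a median of 3 for protein-coding genes. More start sites give more sequence in which to find a peak, and the shares were not adjusted for this. In the kinase group 6 of 8 were open in both libraries. Oxsr1 (OSR1), a kinase that phosphorylates the carriers, averaged 7.01 ± 0.0866 and was the highest of the list. Wnk1, which activates it, averaged 5.49 ± 0.258. Stk39 (SPAK), the relative of OSR1, averaged 0.699 ± 0.0184, below Slc12a2 and Slc12a5. The scaffolds Cab39l and Cab39, which bind these kinases, averaged 3.03 ± 0.472 and 1.73 ± 0.505, and Wnk2 averaged 1.06 ± 0.433. Wnk4 had a peak of 0.443 in replicate 2 and none in replicate 1, and Wnk3 had none in either (SD, n = 2 throughout).

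The remaining groups were open at nearly every gene. All 5 partners of KCC2 and all 7 other transporters, channels and carbonic anhydrases had a promoter DHS in both libraries. Clcn2, a chloride channel, averaged 4.98 ± 0.310, and Clcn3, a chloride-proton exchanger of endosomes and synaptic vesicles, averaged 4.36 ± 0.569. Of 5 regulators of Slc12a5, 4 were open in both libraries. Egr4 averaged 3.17 ± 0.532 and Rest 0.563 ± 0.0644. Tfap2b, which encodes an AP-2 factor, had no peak.

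**Figure D4:**
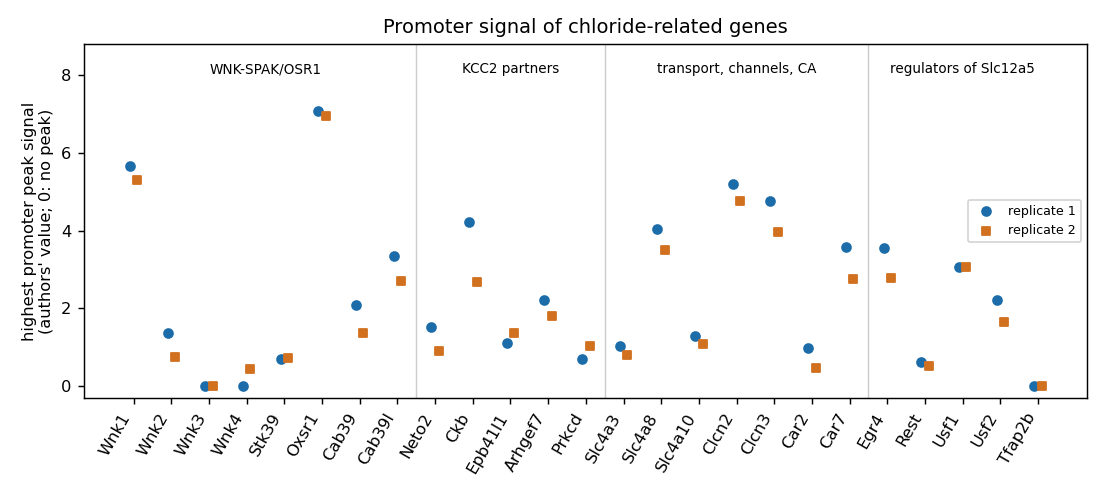
Promoter signal (the authors' value, 0 where no peak was called) of the 25 chloride-related genes by group, with 1 point per library. Oxsr1, Wnk1, Clcn2 and Clcn3 stand highest, and Tfap2b and Wnk3 stand at 0.

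Markers of other cells were read the same way, because Slc12a2 is also expressed in glia and in choroid plexus. Promoter DHSs of both libraries were found for 7 of 7 cortical neuron markers, with mean signals between 1.26 and 3.30, and for 4 of 5 astrocyte markers, between 0.162 and 1.54 over the list. They were found for 3 of 6 oligodendrocyte lineage markers, between 0 and 1.64, for 0 of 4 endothelial markers and for 0 of 5 choroid plexus markers. The markers with a peak in replicate 2 only were Ttr (0.538) and Kl (0.777) of choroid plexus, Cldn5 (0.388) of endothelium and Aqp4 (0.324) of astrocytes, and the peak of Kl reached only 14 bp into its window and held no footprint there. The part of each cell type in the signal of Slc12a2 or Slc12a5 was not tested.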

How the data were processed

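Per the labels, DNase-seq libraries of the left cerebral cortex of 2 mice were analysed as biological replicates 1 and 2. Per the labels and the notes beside the files, alignments were to mm10, and the authors called peaks and footprints for each library without pooling. The aligner and the callers were not given in the sources used here. Values are the deposited signal of each peak in the larger of 2 lists per library, whose unit is not stated. The authors also deposited segments with a q-value of at most 0.05, and footprints whose p-value column holds the constant 0.01 and ranks nothing. Reads of the hybrid strain were set on a C57BL/6J reference, and the effect of CAST/EiJ variants was not tested.

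Peaks were joined with GENCODE M21 starts and genes on 1-based mm10 coordinates, an overlap being at least 1 bp. Start sites within 500 bp were treated as 1 start. Distances run from the middle of a peak. A percentile is the rank among protein-coding genes with a promoter DHS in both libraries. Ratios were taken within a library. SDs describe 2 libraries of 1 group, which share a donor record, so no test was made. The members and lists were chosen with earlier results of these data known. Named from the chloride-related list were the 4 genes with the highest mean, those with no peak in either library and all WNK-SPAK/OSR1 genes. Some genes of the lists are not reported here and were left out of their counts. Egr4, Rest and the markers with a peak in 1 library were named after their values were seen. The overlap steps were tested on simulated data and were right in 100% of cases. Python 3.11.15, NumPy 2.4.6, SciPy 1.17.1 and Matplotlib 3.10.9 were used. Alternatives changed the peak list, the peak number, the libraries, the windows, the overlap and the starts.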

Additional observations from a re-analysis of the deposited data

How the results depend on the processing

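Of 40 recomputed values, 7 moved by more than the spread between libraries (for the number of genes, by over 1.5 times), 2 changed sign and 31 did neither. The number of cotransporter genes with a promoter DHS in both libraries (5) was 3 with the most 5′ start of each gene alone and 7 with windows of 2 kb. The log2 ratio of Slc12a2 over Slc12a5 (0.66) was 0.58 with windows of 2 kb, and could not be computed from the most 5′ starts alone, since Slc12a5 has no peak of both libraries there. The distal DHS difference, Slc12a2 minus Slc12a5 (-8), was -2 in the stricter list and -5 within 20 kb, and ran from -14 without replicate 1 to -9 without replicate 2. The gene body difference per 10 kb (-1.61) ran from -3.96 without replicate 1 to -1.72 without replicate 2, and was -0.477 in the stricter list. A single library counts its own peaks, without the demand for sharing, so more are counted. The footprint difference (-2) was -7.5 with windows of 500 bp and -11.5 with windows of 2 kb, and it was -4 without replicate 1 and 0 without replicate 2. It changed sign to 8.5 with the most 5′ start alone and to 2.5 with starts of protein-coding transcripts alone, a choice added after seeing the data. Both of these leave out starts of Slc12a5. No paired analysis was possible because there is 1 group. Depth is unknown, and a site with no peak may be open below the authors' threshold.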

Other observations

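Strong promoters of neighbouring genes lay within 50 kb of several cotransporter genes. The DHS at the start of Herpud1, an endoplasmic reticulum stress gene downstream of Slc12a3, read 6.38 in replicate 1 and 5.31 in replicate 2. That of Ncoa5, downstream of Slc12a5, read 5.88 and 4.30. Both were above the promoter DHS of Slc12a9, the highest of the cotransporter genes, in each library. Near Slc12a9 the start of Ufsp1 read 4.48 and 4.32 and that of Srrt 3.24 and 2.83.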
